A study of Mus musculus with 6 samples.

Results

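The transport machinery for lipid-modified photoreceptor proteins was followed at the mRNA level through 7 genes, matched exactly by symbol among the 24346 gene symbols listed for each library. They are Unc119 and its paralog Unc119b, the prenyl-binding gene Pde6d, the small GTPase genes Arl2 and Arl3, the ARL2 and ARL3 binding partner Arl2bp, and the chaperone gene Aipl1. The genes were chosen for their place in the pathway, with earlier results of these data known. Whole retinas of Unc119+/+ mice (wild type, 3 libraries) were compared with those of Unc119-/- mice (knockout, 3 libraries). The strain, the age and the structure of the disrupted allele were not stated in the labels. The libraries are not said to come from separate animals, so p-values measure the spread between these libraries, which may in part be technical.

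UNC119 and UNC119B hold the acylated N terminus of proteins such as the transducin alpha subunit in a greasy pocket, while PDE6D holds the prenylated C terminus of proteins such as the rod phosphodiesterase. Loaded with GTP, ARL3 binds these carriers and releases their cargo at the membrane of the cilium or outer segment, and ARL2 can release some of it too. RP2 ends the active state of ARL3, and AIPL1 works with HSP90 in the assembly of phosphodiesterase.

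All of the libraries expressed the rod, cone, Müller glia, bipolar and inner retinal markers examined, and the summed rod markers ranged from 16737 to 18753 FPKM in wild type and from 16981 to 17956 FPKM in the knockout. FPKM scales the fragments of a gene to its transcript length and to the size of the library. The number of fragments is unknown, but the depth relative to wild-type replicate 2, read from the steps between low values, lay between 0.763 and 1. Lens RNA varied most among the marker lists, with 15 lens markers summing to 150.0, 823 and 0.704 FPKM in wild-type replicates 1 to 3 in order, and to 281, 698 and 11969 FPKM in knockout replicates 1 to 3. Of these markers, 11 were at 0 in at least 1 library. Summed levels were apart between genotypes for 3 other lists, all higher in the knockout. The 8 microglia markers summed to 18.4 to 22.3 FPKM in wild type and 33.1 to 36.3 FPKM in the knockout, the 10 cone markers to 1052 to 1124 and 1127 to 1172 FPKM, and 9 genes of retinal stress to 44.2 to 48.1 and 108 to 139 FPKM, with none of these genes at 0 in any library. Their part in the values of the transport genes was not tested. The cone sums nearly met, at 1124 and 1127 FPKM, and the typical cone marker was not higher in the knockout. With each cone marker set on a log2 scale against its average in wild type, the middle marker lay at −0.033, 0.00042 and −0.117 in knockout replicates 1 to 3. It lay at −0.0047, 0.049 and −0.0071 in wild-type replicates 1 to 3. By Xist and Y-linked genes, the males were knockout replicate 1 with wild-type replicates 1 and 2, and the other libraries were female.

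The promoters of the paralogs and of Aipl1 are shown because these genes lay at opposite ends of the range of levels, and because Unc119 has several starts that a value per gene adds up. Each window holds 250 bases before and 50 after a RefSeq start (GRCm38.p6), written 5′ to 3′ on the strand of the gene. RefSeq promoters were found for all 7 genes. Capitals mark TAATCC, the core bound by the photoreceptor homeobox factor CRX, and TGCTGA, a half-site bound by the rod factor NRL, on either strand (GGATTA and TCAGCA on the other). No marked motifs overlap.
Unc119, start 1, chr11:78343245-78343544, plus strand: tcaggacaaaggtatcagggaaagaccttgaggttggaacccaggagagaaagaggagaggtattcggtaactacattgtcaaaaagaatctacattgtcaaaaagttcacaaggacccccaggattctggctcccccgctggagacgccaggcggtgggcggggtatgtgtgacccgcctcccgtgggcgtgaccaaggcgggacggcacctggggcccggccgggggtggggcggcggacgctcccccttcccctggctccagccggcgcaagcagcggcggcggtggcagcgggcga
Unc119, start 2, chr11:78345334-78345633, plus strand: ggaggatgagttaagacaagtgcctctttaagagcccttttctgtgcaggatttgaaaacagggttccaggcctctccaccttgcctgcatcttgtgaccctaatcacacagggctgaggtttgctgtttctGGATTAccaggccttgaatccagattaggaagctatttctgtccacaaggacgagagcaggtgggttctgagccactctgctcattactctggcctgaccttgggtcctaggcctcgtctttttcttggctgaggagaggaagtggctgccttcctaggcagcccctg
Unc119, start 3, chr11:78346460-78346759, plus strand: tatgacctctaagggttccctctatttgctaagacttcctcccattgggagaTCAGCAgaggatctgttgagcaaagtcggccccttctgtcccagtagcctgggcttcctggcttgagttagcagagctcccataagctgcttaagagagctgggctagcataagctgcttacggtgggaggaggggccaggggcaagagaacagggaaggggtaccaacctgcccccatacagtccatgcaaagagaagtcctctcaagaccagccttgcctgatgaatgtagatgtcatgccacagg
Unc119b, chr5:115134926-115135225, minus strand: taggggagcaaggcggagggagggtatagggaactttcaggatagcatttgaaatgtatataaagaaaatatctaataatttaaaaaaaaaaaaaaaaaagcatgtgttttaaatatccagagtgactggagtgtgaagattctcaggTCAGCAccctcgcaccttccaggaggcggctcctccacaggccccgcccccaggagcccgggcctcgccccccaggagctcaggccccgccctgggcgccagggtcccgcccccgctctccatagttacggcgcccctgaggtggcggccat
Aipl1, chr11:72037460-72037759, minus strand: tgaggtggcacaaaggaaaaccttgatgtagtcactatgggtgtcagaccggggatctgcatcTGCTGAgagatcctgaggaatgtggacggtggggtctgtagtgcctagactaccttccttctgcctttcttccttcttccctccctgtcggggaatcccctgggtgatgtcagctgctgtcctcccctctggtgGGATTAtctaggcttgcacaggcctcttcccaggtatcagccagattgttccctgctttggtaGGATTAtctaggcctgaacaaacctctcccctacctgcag
TAATCC was found in 7.06% and TGCTGA in 19.5% of 32851 promoter windows of this length. The Aipl1 window held TAATCC at 2 positions, 53 bases before and 10 bases after the start, and TGCTGA at 1. Of the 3 Unc119 windows, the first held neither, the second held TAATCC 118 bases before its start and the third held TGCTGA 198 bases before its start. The Unc119b window held TGCTGA 102 bases before its start. Of the remaining windows, that of Arl2bp held TGCTGA once, and those of Pde6d, Arl2 and Arl3 held neither motif. The Arl2bp window, chr8:94666841-94667140, belongs to a start inside the gene, which begins at 94666600 in GENCODE M21. A match in these letters is a description and was not tested for binding.

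In the wild-type retina the 7 genes spanned an 88.0-fold range of FPKM, a measure per transcript length. The annotation that gave these lengths is not stated, so small gaps between genes can depend on it. Unc119 stood at the top with 1195 ± 10.1 FPKM (SD, n = 3), the rank of 12 among the 14176 genes tested, that is, genes with a mean of at least 0.5 FPKM over the 6 libraries. Aipl1 followed at 433 ± 13.1 FPKM, rank 65, and Arl3 at 204 ± 12.9 FPKM, rank 242. Pde6d measured 85.1 ± 2.22 FPKM, Arl2 38.9 ± 0.492 FPKM and Arl2bp 32.6 ± 0.795 FPKM. Unc119b was lowest at 13.6 ± 0.919 FPKM, at the 57.0th percentile of tested genes. No neighbours in this order had overlapping values over the wild-type libraries, although Arl2 and Arl2bp were only 1.19-fold apart. Arl3 was 5.25 ± 0.281 times Arl2 in wild type and 5.26 ± 0.368 times in the knockout (SD, n = 3 each).

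**Figure D1:**
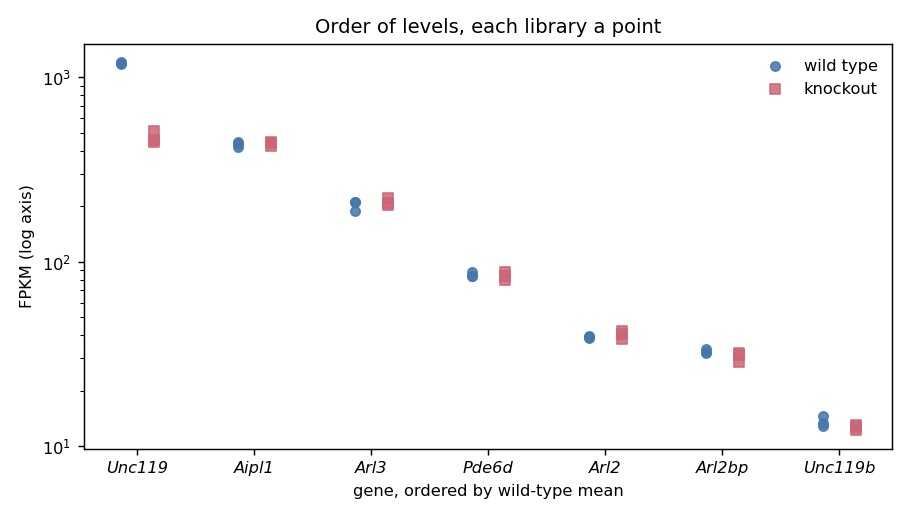
FPKM on a log axis (vertical) for each gene, ordered by its wild-type mean, with each library as a point (circles wild type, squares knockout). Unc119 drops from 1195 to 473 FPKM on average and comes to lie just above Aipl1, while the other genes keep their places.

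In the knockout the order of the means stayed as in wild type, but its top was compressed. Unc119 then measured 473 ± 32.8 FPKM and Aipl1 436 ± 11.6 FPKM (SD, n = 3 each), a 1.08-fold gap in place of 2.76-fold. The lowest knockout value of Unc119, 449 FPKM, was still above the highest of Aipl1, 445 FPKM. Which part of Unc119 the knockout values cover is unknown, so its place above Aipl1 holds for FPKM only. No neighbours in the order had overlapping values over the knockout libraries either.

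Of the 7 genes, 1 fell and none rose at an adjusted p under 0.05 (limma, Benjamini-Hochberg adjusted over the whole table). Over all genes tested, 0.0282% were called lower, 0.205% higher and 0.233% in either direction. All 7 passed the filter on low values. Among the 6 partners of Unc119, none was called and none had an unadjusted limma p under 0.05. Their log2 changes ran from −0.10 to 0.05 with a median of −0.0068, beside a median of −0.0017 for all genes tested. Wild-type and knockout values were fully apart for 2 of the 7, Unc119 and Arl2bp, both lower in the knockout, as was the case for 8.04% of all genes tested in that direction, 7.83% in the other and 15.9% in either.

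**Figure D2:**
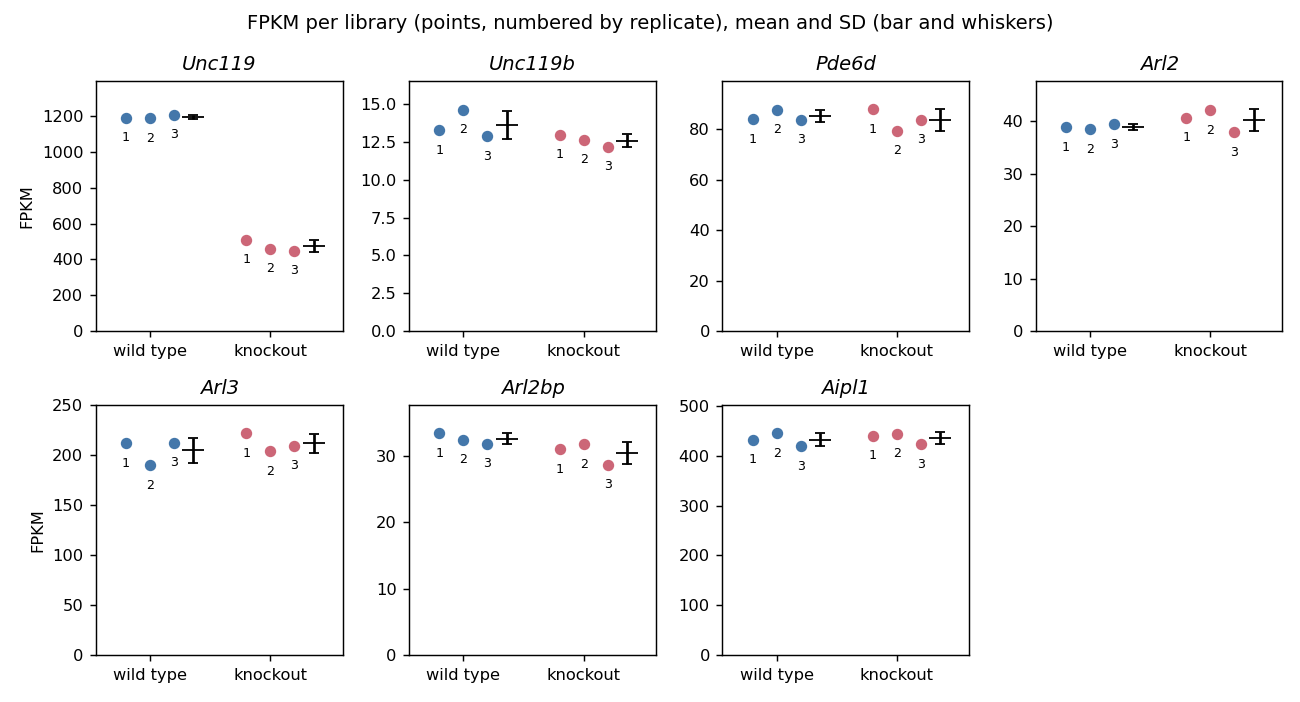
FPKM (vertical, from 0) in wild-type and knockout libraries, 1 panel per gene; points are libraries numbered by replicate, and the bar and whiskers beside them give the mean and SD. Only Unc119 and Arl2bp have no overlap, with Arl2bp at 31.9 to 33.5 FPKM in wild type and 28.7 to 31.8 FPKM in the knockout.

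Unc119 (ENSMUSG00000002058.13, chr11:78343482-78349164, plus strand, mm10, protein coding) measured 1191, 1187 and 1206 FPKM in wild-type replicates 1 to 3. The knockout replicates 1 to 3 measured 510.2, 460 and 449 FPKM. Every knockout library was far below every wild-type library, and the knockout values were more spread (coefficient of variation 6.95% against 0.846%). Relative to the wild-type mean the knockout libraries held 42.7%, 38.5% and 37.5%. The log2 change was −1.34 on the log2(FPKM + 1) scale (95% interval −1.47 to −1.21, limma adjusted p = 6.6e-05). It was −1.22 in males and −1.41 in females, where 1 genotype had only a single library.

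The locus has 7 annotated transcripts in GENCODE M21, of which 3 are coding with 5 exons each. Of these, 2 start at 78343482 and 78343506 and the other at 78346666, inside the gene. Values per gene do not tell which of these transcripts, or which exons, remained in the knockout libraries. No other annotated gene overlaps Unc119. The nearest, Pigs, which encodes a subunit of the GPI transamidase, ends 699 bases before it and averaged 35.6 ± 3.18 FPKM in wild-type and 38.7 ± 4.62 FPKM in knockout libraries (SD, n = 3 each, log2 change 0.12, limma adjusted p = 0.734). Pigs was chosen for its position, after its values were seen.

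Unc119b (ENSMUSG00000046562.5, chr5:115122550-115134975, minus strand), the paralog that binds acylated cargo in the same way, measured 13.3, 14.6 and 12.9 FPKM in wild-type replicates 1 to 3. It measured 13.0, 12.6 and 12.2 FPKM in knockout replicates 1 to 3. The knockout values lay near or below the low end of the wild-type values, and the ranges overlapped. The log2 change was −0.10 (95% interval −0.26 to 0.06, limma adjusted p = 0.693). Without wild-type replicate 2, the highest library, it was −0.05. The interval allows a level between 0.834 and 1.04 times wild type on the scale of FPKM + 1.

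Added together, the paralogs gave 1208 ± 9.40 FPKM in wild-type and 485 ± 33.2 FPKM in knockout libraries (SD, n = 3 each). The difference of −723 FPKM had an exact two-sided permutation p of 0.1, the smallest that 3 libraries against 3 allow. Unc119 made up 98.9% ± 0.0828 of the sum in wild type and 97.4% ± 0.105 in the knockout (SD, n = 3 each), with the same exact permutation p of 0.1. On the FPKM scale Unc119 stayed above Unc119b, at 39.4, 36.4 and 36.9 times Unc119b in knockout replicates 1 to 3. In wild type it was 81.3 to 93.8 times Unc119b. Which part of Unc119 the knockout values cover is unknown, so the knockout sum, share and ratios hold for FPKM only. The mRNA of the transducin alpha genes Gnat1 and Gnat2, added together, was 5.50, 5.08 and 5.22 times the paralog sum in wild-type replicates 1, 2 and 3. In knockout replicates 1, 2 and 3 it was 11.98, 13.6 and 13.0 times. This ratio of cargo mRNA to the mRNA of the paralogs rests on the lower Unc119 and was chosen after the values were seen. Whether the Unc119 RNA left in the knockout encodes a working carrier was not tested.

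Pde6d (ENSMUSG00000026239.14, chr1:86542994-86582629, minus strand), the carrier for prenylated cargo, measured 83.9, 87.7 and 83.8 FPKM in wild-type replicates 1 to 3. The knockout replicates 1 to 3 measured 87.9, 79.3 and 83.7 FPKM. The wild-type values lay within the range of the knockout values. The log2 change was −0.03 (95% interval −0.14 to 0.09, limma adjusted p = 0.899). The mRNA of its phosphodiesterase cargo, Pde6a, Pde6b and Pde6c together, was 20.7 ± 1.98 times Pde6d in wild type and 20.6 ± 0.742 times in the knockout (SD, n = 3 each). Unc119 was 14.05 ± 0.447 times Pde6d in wild type and 5.65 ± 0.257 times in the knockout. In bulk retina, fewer cells of a type and less RNA per cell cannot be told apart.

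Arl3 (ENSMUSG00000025035.9, chr19:46531096-46573198, minus strand), the GTPase that releases cargo from both carriers, measured 212, 189 and 212 FPKM in wild-type replicates 1 to 3 in order, and 222, 204 and 209 FPKM in knockout replicates 1 to 3. Wild-type replicate 2 was the lowest library and the ranges overlapped. The log2 change was 0.05 (95% interval −0.09 to 0.18, limma adjusted p = 0.820). Arl2 (ENSMUSG00000024944.6, chr19:6134374-6141548, minus strand), its close relative with a further role in tubulin folding, measured 38.9, 38.4 and 39.4 FPKM in wild-type replicates 1 to 3 in order, and 40.7, 42.1 and 37.9 FPKM in knockout replicates 1 to 3. The knockout libraries lay on both sides of wild type (log2 change 0.05, 95% interval −0.07 to 0.17, limma adjusted p = 0.810). The change was 0.01 without knockout replicate 2, 0.09 without knockout replicate 3 and 0.09 with a term for lens level. Batf2 shares 566 bases with Arl2 on the opposite strand and was listed at 0 on average in both genotypes.

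Arl2bp (ENSMUSG00000031776.17, chr8:94666600-94674425, plus strand) encodes an effector that binds active ARL2 and ARL3. It measured 33.5, 32.5 and 31.9 FPKM in wild-type replicates 1 to 3 in order, and 31.0, 31.8 and 28.7 FPKM in knockout replicates 1 to 3. All knockout values were below all wild-type values, but knockout replicate 2 and wild-type replicate 3 were nearly equal. The log2 change was −0.10 (95% interval −0.22 to 0.03, limma adjusted p = 0.640). It was −0.09 within males and −0.08 within females. Without knockout replicate 3, its lowest library and the one with the most lens RNA, it was −0.05 (limma adjusted p = 0.869). With a term for lens level it was −0.065, and the part of lens RNA in the change was not tested.

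Aipl1 (ENSMUSG00000040554.10, chr11:72027963-72037509, minus strand), the photoreceptor chaperone needed for stable phosphodiesterase, measured 433, 445 and 419 FPKM in wild-type replicates 1 to 3. It measured 440, 445 and 423 FPKM in knockout replicates 1 to 3. The knockout values lay within the wild-type range. The log2 change was 0.01 (95% interval −0.09 to 0.11, limma adjusted p = 0.949), and its sign was the opposite with quantile normalization. The interval allows 0.940 to 1.08 times the wild-type level on the scale of FPKM + 1.

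**Figure D3:**
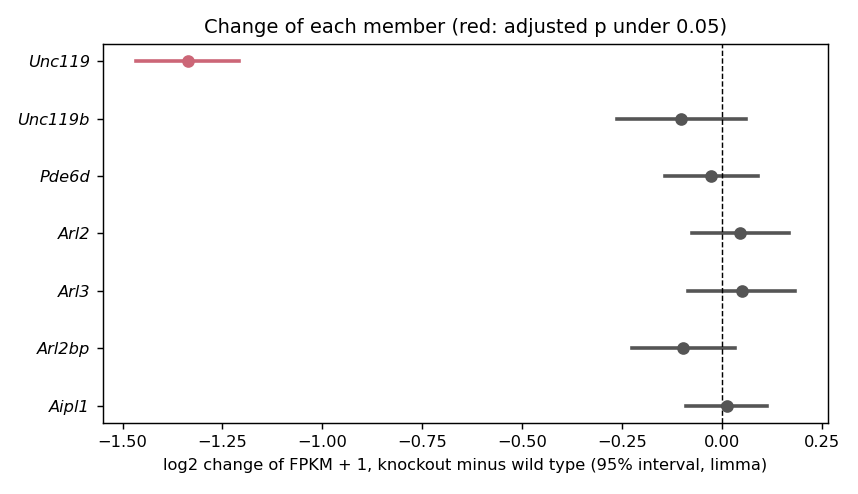
Change of each gene (horizontal, log2 of FPKM + 1, knockout minus wild type) with its 95% interval from limma; red marks an adjusted p under 0.05. Unc119 lies at −1.34, while the other 6 points lie between −0.10 and 0.05 and all of their intervals include 0.

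Further genes of the pathway were taken from 6 lists that hold 64 different genes, of which 59 passed the filter on low values. None of the 59 was called by limma, beside 0.233% of all genes tested. An unadjusted limma p under 0.05 was found for 5 of them, or 8.47%, and for 1276 of the 14176 genes tested in all, or 9.0%. The genotypes were apart for 4 that were higher and 3 that were lower, or 11.9% of the 59, beside 15.9% of all genes tested. The median log2 change of the 59 was −0.02. For scale, Edn2, an endothelin of stressed photoreceptors, measured 3.13 ± 0.150 and 37.2 ± 5.34 FPKM in wild-type and knockout libraries, and Gfap, the filament of reactive glia, 7.96 ± 0.644 and 16.1 ± 0.929 FPKM (SD, n = 3 each, limma adjusted p = 1.5e-05 and 0.0045). With a term for lens level in the fit Gfap was no longer called (log2 change 0.91, limma adjusted p = 0.0654).

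The list of ARL2 and ARL3 regulators and effectors had 10 members tested, with a median log2 change of −0.03. The genotypes were apart for 1, Tbcb, beside 15.9% of all genes tested. Tbcb, a tubulin folding cofactor, measured 27.2, 29.0 and 25.96 FPKM in wild-type replicates 1 to 3 in order, and 34.5, 30.4 and 29.8 FPKM in knockout replicates 1 to 3 (log2 change 0.20, limma adjusted p = 0.499). Tbca, another tubulin cofactor and the most abundant of the list, averaged 72.7 ± 17.3 FPKM in wild-type and 72.8 ± 11.1 FPKM in knockout libraries (SD, n = 3 each). Rp2h, the mouse RP2 gene, whose product ends the active state of ARL3, measured 7.20 ± 0.764 and 6.59 ± 0.273 FPKM (limma adjusted p = 0.742). It was chosen for its role, after its values were seen.

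Among the other ARL small GTPase genes, 13 of 16 were tested, with a median log2 change of −0.08. The genotypes were apart for 2 lower and 1 higher, beside 15.9% of all genes tested in either direction. Arl5b, a GTPase of the trans-Golgi, measured 7.45, 7.48 and 8.07 FPKM in wild-type replicates 1 to 3 in order, and 5.81, 7.05 and 5.48 FPKM in knockout replicates 1 to 3 (log2 change −0.29, limma adjusted p = 0.493). Arl4d, the most abundant of these genes, averaged 103 ± 2.49 FPKM in wild-type and 94.7 ± 7.54 FPKM in knockout libraries (SD, n = 3 each, limma adjusted p = 0.610). Arl3 thus exceeded every other ARL gene examined in wild type on the FPKM scale. Arl9, Arl11 and Arl14 stayed under the filter.

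Acylated cargo genes had 8 of 10 members tested, with a median log2 change of 0.00366. The genotypes were apart for 1, Cys1, beside 15.9% of all genes tested. Cys1 encodes cystin, a myristoylated protein of the cilium, and measured 4.23, 4.66 and 4.29 FPKM in wild-type replicates 1 to 3 in order, and 5.37, 5.14 and 5.50 FPKM in knockout replicates 1 to 3. All knockout values were higher (log2 change 0.23, limma adjusted p = 0.499). Gnat1, the rod transducin alpha gene, averaged 6277 ± 257 FPKM in wild-type and 6143 ± 206 FPKM in knockout libraries (SD, n = 3 each). For none of the 15 prenylated cargo genes were the genotypes apart, and their log2 changes ran from −0.10 to 0.13 with a median of −0.01. Gngt1, the rod transducin gamma gene and the most abundant of them, measured 1545 ± 165 and 1461 ± 165 FPKM (SD, n = 3 each, limma adjusted p = 0.830).

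AIPL1 chaperone partners and clients were likewise not apart between genotypes for any of the 9 members. Their log2 changes ran from −0.21 to 0.07 with a median of −0.03. Pde6g, the inhibitory subunit of rod phosphodiesterase and the most abundant of them, averaged 2509 ± 91.3 FPKM in wild-type and 2408 ± 26.6 FPKM in knockout libraries (SD, n = 3 each, limma adjusted p = 0.748). Of 5 other binding partners of UNC119, Myo5b and Cabp4 had genotypes apart, in opposite directions, beside 15.9% of all genes tested. Myo5b, a motor of recycling endosomes, measured 6.50, 6.62 and 6.10 FPKM in wild-type replicates 1 to 3 in order, and 9.43, 8.96 and 12.5 FPKM in knockout replicates 1 to 3. All knockout libraries were higher, yet the log2 change of 0.60 (95% interval 0.32 to 0.88) did not pass after adjustment (limma adjusted p = 0.208). The Myo5b change was 0.46 without knockout replicate 3, its highest library and the one with the most lens RNA. It was 0.43 with the lens term. Cabp4, a calcium sensor of the photoreceptor synapse, measured 159 ± 1.90 and 148 ± 7.41 FPKM (SD, n = 3 each, log2 change −0.10, limma adjusted p = 0.583). The Cabp4 change was −0.06 without knockout replicate 3, its lowest library, and also with the lens term. The cause of these shifts in Myo5b and Cabp4 was not tested. The endocytic GTPase gene Dnm1, the most abundant of the list, measured 175 ± 3.36 and 174 ± 3.94 FPKM (SD, n = 3 each).

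**Figure D4:**
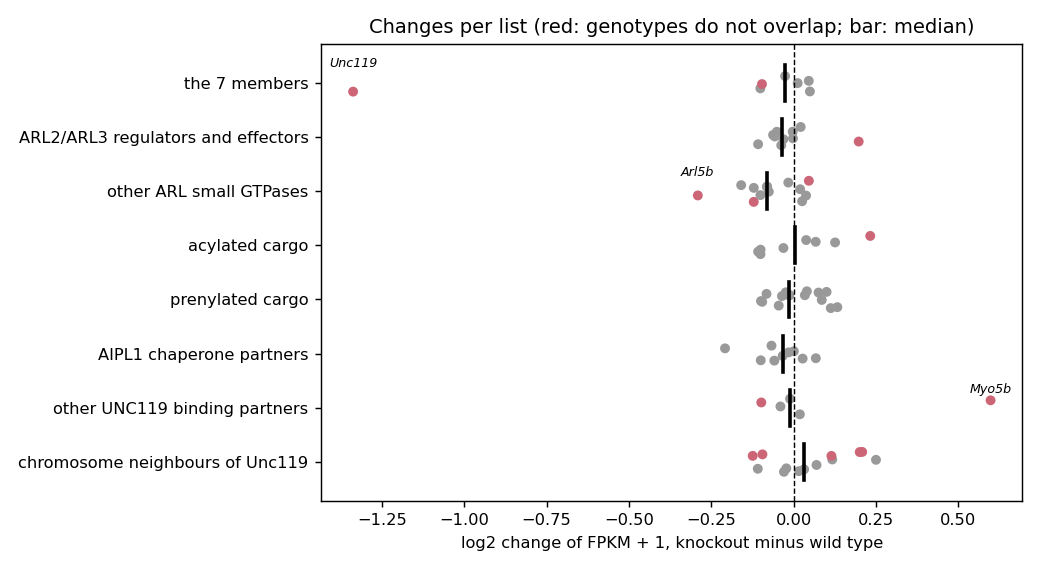
Log2 change of FPKM + 1, knockout minus wild type (horizontal), of each tested gene in the 7 members, the 6 pathway lists and the list of neighbours on the chromosome; red points have genotypes that do not overlap and bars are medians. Unc119 stands alone at −1.34, and the farthest gene of the lists is Myo5b at 0.60.

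Genes that lie near Unc119 on chromosome 11 had 13 of 15 members tested, with a median log2 change of 0.03. None was called by limma, beside 0.233% of all genes tested. An unadjusted limma p under 0.05 was found for 3, or 23.1%, beside 9.0% of all genes tested. The genotypes were apart for 3 that were higher and 2 that were lower. That is 38.5% of the 13, beside 15.9% of all genes tested. Sarm1, an NAD-cleaving enzyme of axon degeneration that lies 123165 bases downstream, measured 26.4, 30.1 and 27.6 FPKM in wild-type replicates 1 to 3 in order, and 33.1, 33.2 and 31.2 FPKM in knockout replicates 1 to 3 (log2 change 0.21, limma adjusted p = 0.399). Vtn, the gene of the matrix protein vitronectin and the most abundant neighbour, measured 464, 460 and 449 FPKM in wild-type replicates 1 to 3 in order, and 506, 490 and 491 FPKM in knockout replicates 1 to 3 (log2 change 0.11, limma adjusted p = 0.487). Both were higher in every knockout library without passing the test.

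The tested genes whose pattern over the 6 libraries was most like that of Unc119, by Pearson's r of log2(FPKM + 1), were Kdsr (r = 0.997), Mir6516 (r = 0.996) and Abca1 (r = 0.989). The likeness rests on the step between genotypes, and 60 tested genes had an r above 0.95. Kdsr, an enzyme of sphingolipid synthesis, averaged 15.4 ± 0.125 FPKM in wild-type and 12.7 ± 0.203 FPKM in knockout libraries, and Abca1, a cholesterol exporter, 8.29 ± 0.275 and 6.30 ± 0.208 FPKM (SD, n = 3 each, limma adjusted p = 0.245 and 0.223). Mir6516, a microRNA gene, was listed at 0 in every knockout library and had 44.8, 34.2 and 42.5 FPKM in wild-type replicates 1 to 3. It was called lower (limma adjusted p = 9.6e-07), and no fold is given because of the 0. The libraries were made with an mRNA kit, so the mature microRNA was not measured. The number of fragments behind these values is unknown. Among the 6 partners the highest r to Unc119 was that of Arl2bp, at 0.731.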

How the data were processed

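RNA of whole retina was sequenced in 3 wild-type and 3 knockout libraries, made with a stranded mRNA kit per the labels' protocols. The authors deposited 1 FPKM value per gene symbol and library, per the file headers. TopHat2 2.1.1, Cuffdiff 2.2.1 and mm10 are named in the submitters' processing notes, and the gene annotation, strand setting and scaling between libraries are not stated in them. For genes above 0 in every library, the median ratio of a library to the geometric mean over libraries lay between 1.00076 and 1.00163. A typical gene was thus on the same scale in every library, including knockout replicate 3, which held the most lens RNA. The number of fragments behind a value is unknown.

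Genes with a mean of at least 0.5 FPKM were tested on log2(FPKM + 1) by limma 3.58.1 in R 4.3.3 (eBayes with a trend), two-sided, knockout minus wild type, with Benjamini-Hochberg adjustment over the 14176 genes and a threshold of 0.05. The pseudocount of 1 understates changes of low genes. The procedure was checked on simulated data. Single values per library were compared by exact permutation tests in Python 3.11.15 with scipy 1.17.1. Relative depth was the commonest ratio between libraries of genes at or under 0.3 FPKM. Coordinates are from GENCODE M21 (mm10) and promoters from RefSeq (GRCm38.p6, the same assembly).

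The members and lists were chosen with earlier results of these data known. Of the 8 members of the set, 1 is not reported here. Besides the other 7, the genes named are, for each of 6 pathway lists and a list of chromosome neighbours, its called members or else up to 2 with the largest moderated statistic among those with genotypes apart, its most abundant member, the 3 tested genes most like Unc119, Gfap and Edn2. Outside this rule, Pigs, Rp2h, Batf2 and the cargo genes Gnat2, Pde6a, Pde6b and Pde6c within summed ratios were chosen after their values were seen. The alternatives were other pseudocounts, filters and scalings, library weights, terms for replicate number, sex and lens level, and leaving out each library.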

Additional observations from a re-analysis of the deposited data

How the results depend on the processing

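Unc119 was called lower under all 15 alternatives, with log2 changes from −1.39 to −1.28, and the count of members called was 1 and that of pathway and neighbouring genes called 0 in each. Of the 105 values of members under the alternatives, 100 kept their direction and their side of the threshold, and the other 5 changed sign without being called. The filters and the replicate block cannot alter the log2 change of a gene, so only its adjusted p could move there. Rescaling by the median ratio used factors of 1.00076 to 1.00163 and left the changes almost as they were. Aipl1 was −0.055 with quantile normalization. Over the fits that each leave out a library it ran from −0.0098 to 0.034, Pde6d from −0.062 to 0.011 and Arl3 from −0.0039 to 0.077. The sign changed without knockout replicate 2 for Aipl1 and Pde6d, without wild-type replicate 3 for Aipl1 and without wild-type replicate 2 for Arl3; the cause was not tested. The paralog sum differed by −742 to −710.5 FPKM when single libraries were left out. Among other named genes, the lens term made Tbca −0.10, Gnat1 0.0097 and Gngt1 0.040 and left Gfap at 0.91 with an adjusted p of 0.0654 by limma, above the threshold. With single libraries left out, Tbca ran from −0.19 to 0.15, Gngt1 from −0.16 to 0.013 and Dnm1 from −0.026 to 0.0080.

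Deviations of same-numbered libraries correlated at 0.0720, −0.0902 and −0.119 across genes for replicates 1, 2 and 3, so the numbers were not taken to pair the samples. With the replicate block, Unc119 was −1.34 (limma adjusted p = 0.0016) and no other member was called, and over all genes 15 were called in place of 33. The number of genes called was also 7 with the lens term, 19 with the sex term, 12, 18 and 13 without wild-type replicates 1, 2 and 3, and 21, 14 and 27 without knockout replicates 1, 2 and 3, in fits with fewer residual degrees of freedom. It was 23 with no filter. Unknown depth limits what can be said of low genes.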
